A study of Mus musculus with 36 samples.

Results

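The lungs of mice that received Corexit 9500 mixed with MC252 crude oil (9500+oil) were compared with the lungs of mice that received Corexit 9500 alone, which asks what the oil added to the response to the dispersant. The mice were chosen by the treatment and sex in their labels and came to 12 of the 36 mice sequenced, with 3 female and 3 male mice on each side. All were wild-type C57BL/6 young adults without a transgene. They were dosed through the airway on days 0, 7 and 13 and killed on day 14. The 9500+oil mice received a fraction made from dispersant, oil and buffered saline, and the Corexit 9500 mice one made from dispersant and buffered saline at the same ratio of dispersant to saline, each diluted to 0.1. The series description gives the route as intratracheal instillation of a water-accommodated fraction, whereas the methods of the study give oropharyngeal aspiration of a saline-accommodated fraction. The remaining 24 mice received saline, oil, Corexit 9527 or 9527+oil and are cited only beside the 2 groups compared. Per the series description, male and female mice were treated separately, so a difference between the sexes cannot be told apart from one between these treatments.

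Corexit dispersants are mixtures of surfactants and solvents that break an oil slick into droplets. An injured airway lining is known to switch on repair genes such as the small proline-rich proteins and to fill with mucous cells, which secrete the gel-forming mucin Muc5ac, while macrophages in an interleukin-4 type response make Retnla and the chitinase-like proteins. Crude oil brings polycyclic aromatic hydrocarbons, which bind the aryl hydrocarbon receptor (Ahr) and so switch on Cyp1a1, an enzyme that oxidises them.

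Promoters of 3 genes that the comparison turns on are shown, since they stand for the squamous repair genes, the macrophage genes and the genes induced through Ahr. They run 5′ to 3′ on the strand of the gene, end at the start of transcription or at the first annotated exon before it, and come from RefSeq on GRCm38.p6. Capitals mark TGACTCA or its complement TGAGTCA (the AP-1 site) in Sprr1a, TTC and GAA with 4 bases between them (the STAT6 site) in Retnla and GCGTG (the core bound by the Ahr complex) in Cyp1a1.
Sprr1a, chr3:92485896-92486131, minus strand: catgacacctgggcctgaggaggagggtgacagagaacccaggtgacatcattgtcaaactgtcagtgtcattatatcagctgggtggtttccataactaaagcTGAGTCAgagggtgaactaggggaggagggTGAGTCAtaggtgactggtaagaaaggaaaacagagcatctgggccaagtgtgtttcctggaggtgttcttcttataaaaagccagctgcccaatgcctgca
Retnla, chr16:48842359-48842550, plus strand: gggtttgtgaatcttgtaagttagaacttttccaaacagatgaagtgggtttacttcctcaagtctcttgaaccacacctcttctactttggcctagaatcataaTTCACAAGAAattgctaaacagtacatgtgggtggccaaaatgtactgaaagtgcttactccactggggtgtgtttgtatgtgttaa
Cyp1a1, chr9:57697363-57697612, plus strand: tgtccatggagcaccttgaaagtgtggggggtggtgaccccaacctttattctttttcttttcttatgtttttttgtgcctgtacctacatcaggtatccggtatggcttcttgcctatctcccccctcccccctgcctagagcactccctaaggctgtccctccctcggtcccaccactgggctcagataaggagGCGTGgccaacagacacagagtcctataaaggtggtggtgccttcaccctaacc
Both strands were searched over 250 bases before the RefSeq start. The AP-1 letters stood in 4.43% of all promoters of that length, the STAT6 letters in 5.86% and the Ahr core in 28.2%. Of the 15333 genes tested, 11530 had a promoter in the table, and 3.23%, 4.53% and 43.3% of these held the respective letters. The AP-1 letters occurred in the promoters of 3 of 20 epithelial injury genes, and the Ahr core in 8 of 13 genes of the Ahr pathway. A match describes the letters and does not show that a factor binds there.

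The RNA came from the whole left lung, where fewer cells of a type and less RNA per cell cannot be told apart. Reads counted on genes, in units of 1e6, ran from 17.53 to 29.17 per mouse, with 27.12 to 29.17 in the male Corexit 9500 mice and 19.19 to 22.29 in the male 9500+oil mice. Levels are given as CPM, the counts of a gene per 1e6 counts of its library after TMM scaling, and differences as log2 fold changes of 9500+oil over Corexit 9500, so that a negative value is lower with oil. Of the 16 markers of alveolar type 2 cells and the 12 of club cells, both lung cell types, none was at 0 in all 12 mice. Female 9500+oil mouse 14 stood apart from the others, with 20.7% of its counts on mitochondrial genes (5.61% to 11.3% in the other 11 mice) and few counts on GC-rich genes. Counts or medians of most gene lists, and genes in which it stood apart, are therefore given also without it. Among the mice cited beside the 2 groups, female saline mouse 3 (45.1%), female oil mouse 6 (22.6%) and female Corexit 9527 mouse 11 (38.4%) also had over 20% mitochondrial counts, and the main values that involve them are given also without those of the 4 libraries that enter the fit, a setting chosen after seeing the data.

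No gene passed an adjusted p of 0.05, or an FDR of 0.10, in edgeR's quasi-likelihood test over both sexes. The lowest adjusted p was 0.9996 (edgeR), and all genes named below carry that caveat: their values describe the 12 mice and are not calls. Of the 15333 genes tested, 299 (1.95%) had an unadjusted p under 0.05, 212 lower (1.38%) and 87 higher (0.567%) in the 9500+oil mice. Without mouse 14 it was 514 of 15565 (3.3%), 323 lower (2.08%) and 191 higher (1.23%), and again none passed. The study worked with DESeq2. Under its Wald test 5 genes passed an adjusted p of 0.05 and all were lower in 9500+oil. These were Sprr1a, Psca, Slc26a4, Clca3 and Muc5ac, genes of airway epithelium. In a fit of all 6 treatment groups with edgeR, Sprr1a alone passed (adjusted p = 0.00131).

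Sprr1a (chromosome 3, 92483952 to 92485895), which encodes a protein cross-linked into the envelope of squamous cells, was among the genes with the largest difference. In female mice it lay at 78.9, 7.52 and 35.2 CPM with Corexit 9500 and at 1.41, 3.19 and 1.03 CPM with 9500+oil. In male mice it lay at 18.9, 10.8 and 3.09 CPM with Corexit 9500 and at 1.41, 2.70 and 1.53 CPM with 9500+oil. Every 9500+oil mouse was thus below every Corexit 9500 mouse of its sex, and the 9500+oil mice lay near the saline mice, which had 1.21 to 2.58 CPM. The log2 fold change was -3.49 (SE 0.66, unadjusted p = 1.54e-04, edgeR), and -3.56 without mouse 14. DESeq2 gave -3.48 with an adjusted p of 5.2e-06. Reads of the Sprr family are alike and could have been split between its members.

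**Figure D1:**
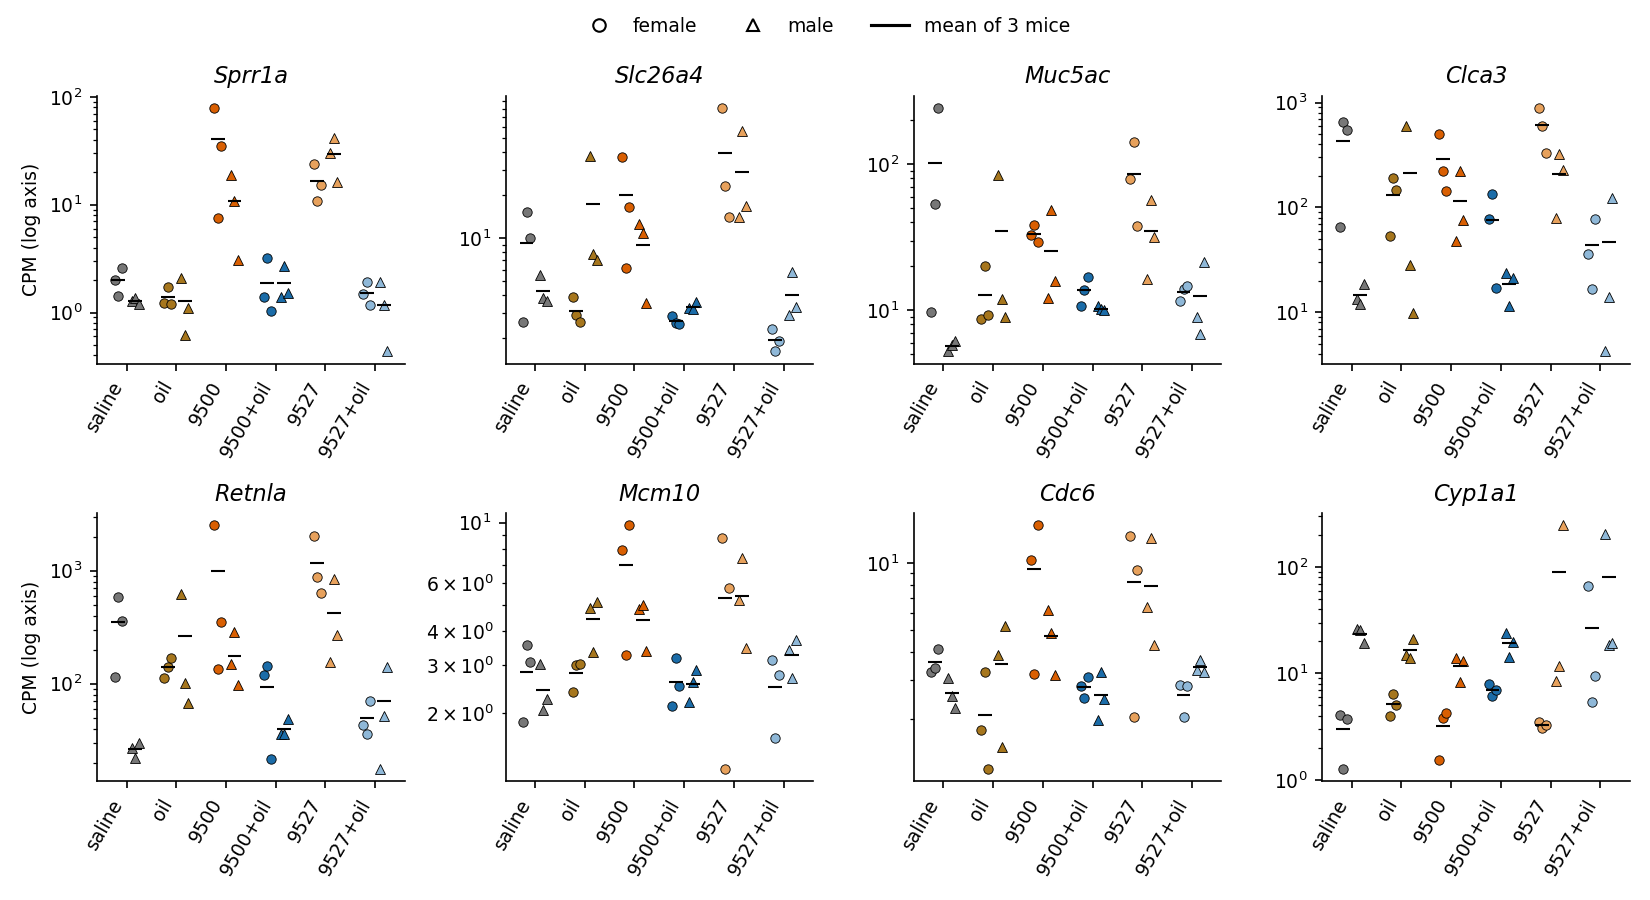
Level of 8 genes in CPM (log axes) in each of the 36 mice, by treatment, with females as circles, males as triangles and a bar at the mean of 3 mice. The 9500+oil mice lie below the Corexit 9500 mice of their sex for Sprr1a, Muc5ac, Clca3 and Mcm10 and above them for Cyp1a1, whereas single mice overlap for Slc26a4, Retnla and Cdc6.

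Of 11 goblet and basal cell markers tested, 7 were lower and 4 higher with 9500+oil, 3 of the lower ones at an unadjusted p under 0.05, while 46.9% of all genes were lower and 1.38% lower at that p. Their median was -0.30, and without mouse 14 it was -0.26 with the same counts. Muc5ac (chromosome 7, 141788972 to 141819231) lay at 32.6, 38.2 and 29.2 CPM in female and at 12.2, 48.7 and 15.9 CPM in male Corexit 9500 mice. With 9500+oil it lay at 10.7, 13.7 and 16.9 CPM in female and at 10.6, 10.1 and 10.0 CPM in male mice, so the groups did not overlap in either sex. The log2 fold change was -1.30 (SE 0.29, unadjusted p = 6.53e-04, edgeR). Clca3 of the tables, now named Clca1 (chromosome 3, 145003817 to 145032776), is a secreted protein of mucous cells. It lay at 497, 222 and 145 CPM in female and 47.7, 225 and 76.7 CPM in male Corexit 9500 mice, against 77.0, 134 and 17.0 CPM and 23.6, 11.5 and 21.2 CPM with 9500+oil. The groups were again apart in each sex, with a log2 fold change of -2.27 (SE 0.52). Slc26a4, an anion exchanger of the airway surface, had a log2 fold change of -2.16 (SE 0.46), and 1 male pair of mice overlapped, at 3.56 CPM with Corexit 9500 and 3.57 CPM with 9500+oil. Fcgbp, a mucus protein, differed by -1.74 (SE 0.47) and Agr2, which folds mucins, by -1.43 (SE 0.46). These genes were uneven among the saline mice too: Muc5ac lay at 5.23 to 6.13 CPM in male saline mice but at 9.75, 53.1 and 243 CPM in female ones, the last of which was mouse 3. Against saline, Muc5ac differed by 0.26 (SE 0.94) with Corexit 9500 and by -1.01 (SE 0.88) with 9500+oil, 2 values that share the saline mice. Without the libraries of over 20% mitochondrial counts they were 1.17 (SE 0.53) and -0.02 (SE 0.47).

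Of the 38 genes listed for epithelial injury, squamous change and mucus, 31 were tested. 27 were lower and 4 higher with 9500+oil, and 16 of the lower ones had an unadjusted p under 0.05, against 1.38% of all genes. Their median log2 fold change was -0.55, against 0.02 over all genes tested. Without mouse 14, 26 were lower and 5 higher, 17 of the lower ones at an unadjusted p under 0.05 (2.08% of all genes), with a median of -0.46. In 8 of them the groups were apart in each sex, where 36 of all genes (0.235%) were apart in this direction. Psca, a surface protein of epithelial cells, had -3.66 (SE 0.64) but rested on few reads, with at most 2.73 CPM in any of the 12 mice, and it was picked after its values were seen. Other members were picked after their values were seen: the simple-epithelium keratins Krt8 and Krt18 had log2 fold changes of -0.74 each, the tight-junction protein Cldn4 had -0.99, and Ereg, a ligand of the epidermal growth factor receptor, had -1.69. The basal-cell keratins Krt5 and Krt15, at low levels, had 0.45 (SE 0.71) and 1.10 (SE 0.75). S100a14, a calcium-binding epithelial protein outside the list, had -1.74 (SE 0.48) and lay at 4.73 to 19.6 CPM in female Corexit 9500 mice against 0.638 to 2.49 CPM with 9500+oil. The lowest of these was mouse 14, without which the log2 fold change was -1.46. Msln, a surface protein of mesothelial cells, had -0.65 (SE 0.18), and its groups were apart in each sex, while the 11 mesothelial markers tested were split, with 6 higher and 5 lower and a median of 0.01. The summed level of 12 goblet and basal cell markers was 442 to 1204 CPM (median 932) in Corexit 9500 mice and 433 to 597 CPM (median 553) in 9500+oil mice. None of these markers was at 0 in all 12 mice, and the share of mucous cells in the result was not tested.

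Genes of alternatively activated macrophages were the next group. Retnla (chromosome 16, 48842551 to 48844461), a secreted protein made by macrophages and airway cells in type 2 responses, lay at 2518, 136 and 350 CPM in female and 149, 284 and 96.8 CPM in male Corexit 9500 mice. With 9500+oil it lay at 120, 142 and 21.5 CPM in female and 35.7, 36.2 and 48.3 CPM in male mice. The male groups were apart, and in female mice Corexit 9500 mouse 8 lay within the range of the 9500+oil mice. The log2 fold change was -2.77 (SE 0.68, unadjusted p = 0.00143, edgeR). Chil4, a chitinase-like protein, had -4.01 (SE 1.01), and Chil3, its more abundant relative, -0.82 (SE 0.23). Chil3 lay at 454 to 1018 CPM in female Corexit 9500 mice and 261 to 425 CPM in female 9500+oil mice, and the groups were apart in males as well. Reads of the neighbouring genes Chil3 and Chil4 could have been split between them. Mmp12, the elastase of macrophages, differed by -1.15 (SE 0.34) and Timp1, an inhibitor of matrix proteases, by -1.53 (SE 0.46).

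Of the 23 listed genes of this group that were tested, 21 were lower with 9500+oil (46.9% of all genes), 9 of them at an unadjusted p under 0.05 (1.38% of all genes), with a median of -0.47. Without mouse 14, 21 were lower, 8 of them at an unadjusted p under 0.05 (2.08% of all genes), with a median of -0.52. By sex the median was -0.80 in female and -0.22 in male mice. The lower members included Mgl2 (-0.82), a lectin of macrophages and dendritic cells, picked after its values were seen. Of 22 markers of alveolar macrophages, 12 were higher and 10 lower, with a median of 0.01. Without mouse 14, 7 were higher and 15 lower, with a median of -0.14, and in male mice 8 were higher and 14 lower, with a median of -0.02. The chemokines Ccl17, Ccl2 and Ccl7, which attract T cells and monocytes, had log2 fold changes of -1.63 (SE 0.58), -1.63 (SE 0.58) and -1.67 (SE 0.64). Of 29 chemokines tested, 22 were lower and 6 of these had an unadjusted p under 0.05, against the same 46.9% and 1.38% of all genes, with a median of -0.47 in female and -0.02 in male mice. Without mouse 14 it was 24 of 31, again 6 of them at an unadjusted p under 0.05. The acute phase genes Serpina3n (-0.78, SE 0.24), Saa3 (-1.95, SE 0.62) and Lcn2 (-0.89, SE 0.30) had lower values too, among 25 of 34 in their list (22 of 34 without mouse 14). Serpina3n, a protease inhibitor, lay at 411, 176 and 354 CPM in female and 298, 331 and 191 CPM in male Corexit 9500 mice, and at 152, 184 and 113 CPM and 157, 179 and 246 CPM with 9500+oil. The groups overlapped for all 3 of these genes.

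**Figure D2:**
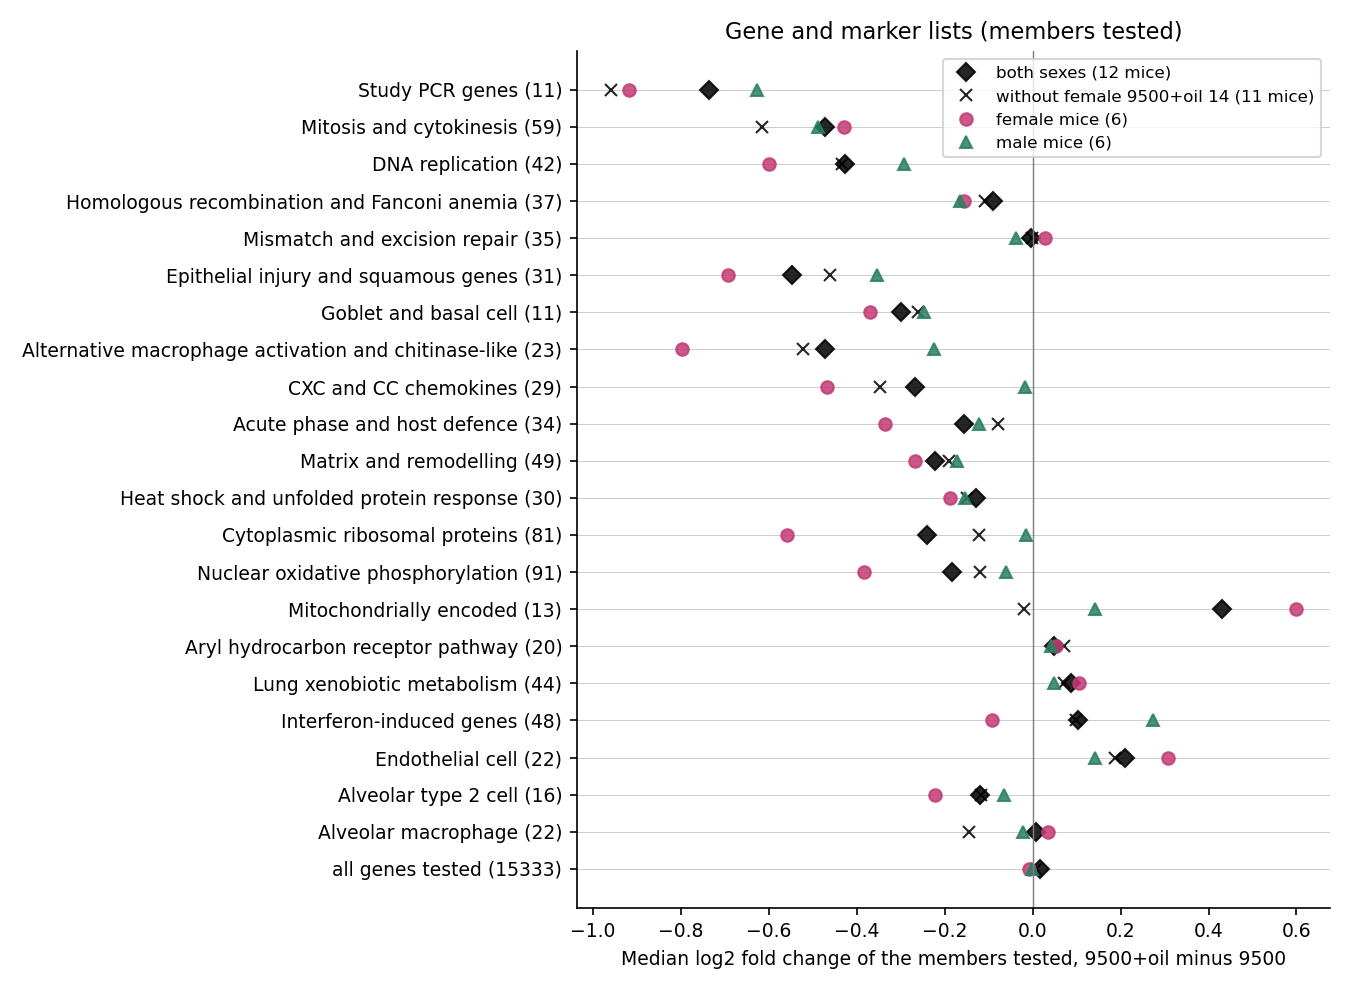
Median log2 fold change of 9500+oil over Corexit 9500 for the tested members of 21 gene and marker lists and for all genes tested, over both sexes, without female 9500+oil mouse 14, and in each sex. The DNA replication, mitosis, epithelial injury and alternative macrophage lists lie to the left of 0 in all 4 fits, while the mitochondrially encoded list moves from 0.43 to -0.02 without that mouse.

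Genes that replicate DNA and divide cells were mostly lower with 9500+oil. Of 42 DNA replication genes, 36 were lower and 6 higher. Of the lower ones, 18 had an unadjusted p under 0.05, and the median was -0.43, while 46.9% of all genes were lower and 1.38% were lower at an unadjusted p under 0.05. Without mouse 14, 41 were lower, 21 of them at an unadjusted p under 0.05 (2.08% of all genes), with a median of -0.43. Mcm10 (chromosome 2, 4989714 to 5012791), a factor that starts replication, lay at 7.93, 3.27 and 9.78 CPM in female and 4.84, 4.98 and 3.39 CPM in male Corexit 9500 mice. It lay at 2.13, 3.19 and 2.53 CPM in female and 2.20, 2.60 and 2.89 CPM in male 9500+oil mice, below every Corexit 9500 mouse of the same sex. Its log2 fold change was -1.10 (SE 0.28, unadjusted p = 0.00188, edgeR). Cdc6, which licenses origins of replication, had -1.32 (SE 0.35), and Gins2, a subunit of the replicative helicase, -1.43 (SE 0.40). For both, only 1 sex was fully apart.

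Of 59 genes of mitosis and cytokinesis, 57 were lower (46.9% of all genes) and 17 of these had an unadjusted p under 0.05 (1.38% of all genes). Their median was -0.47, and without mouse 14 it was -0.61, with 58 lower and 29 at an unadjusted p under 0.05 (2.08% of all genes). Kif2c, a microtubule-depolymerising kinesin, differed by -0.91 (SE 0.29), the mitotic kinase Plk1 by -0.65 (SE 0.21) and Cep55, needed for the final cut between daughter cells, by -0.71 (SE 0.25). Ccnf, a cyclin that marks proteins for degradation, had -1.03 (SE 0.27). Mouse 14 was high for some of these genes: Ccna2, the cyclin of the S and G2 phases, lay at 24.3 CPM in it against 12.0 and 11.2 CPM in the other female 9500+oil mice, with a log2 fold change of -0.37 with it and -0.60 without it. A list of 11 genes of DNA damage response and repair was lower throughout, 6 members at an unadjusted p under 0.05, with a median of -0.74 (7 members and -0.96 without mouse 14). That list was chosen from results of the same series and measured by PCR in Corexit 9527 and saline mice, so its count is not taken as independent evidence. Among them were Dtl (-1.03, SE 0.32), which targets a replication licensing factor for degradation, Uhrf1 (-1.05, SE 0.33), which keeps DNA methylation through replication, Clspn (-0.90, SE 0.31), a checkpoint protein, and 2810417H13Rik (-0.91, SE 0.32), now named Pclaf.

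Homologous recombination and Fanconi anemia genes were lower in 23 and higher in 14 of 37, with a median of -0.09 (26 lower and -0.11 without mouse 14), and the lowest p values were those of Rad54l (-0.79, SE 0.29), Eme1 (-1.04, SE 0.41) and Exo1 (-0.77, SE 0.33). Mismatch and excision repair genes were split 17 higher and 18 lower, with none at an unadjusted p under 0.05 (2 without mouse 14). Targets of p53 were split 15 higher and 17 lower (12 and 20 without mouse 14), with 1 at an unadjusted p under 0.05. Over all genes tested, 46.9% were lower and 1.95% had an unadjusted p under 0.05. Without mouse 14 these shares were 47.9% and 3.3%.

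**Figure D3:**
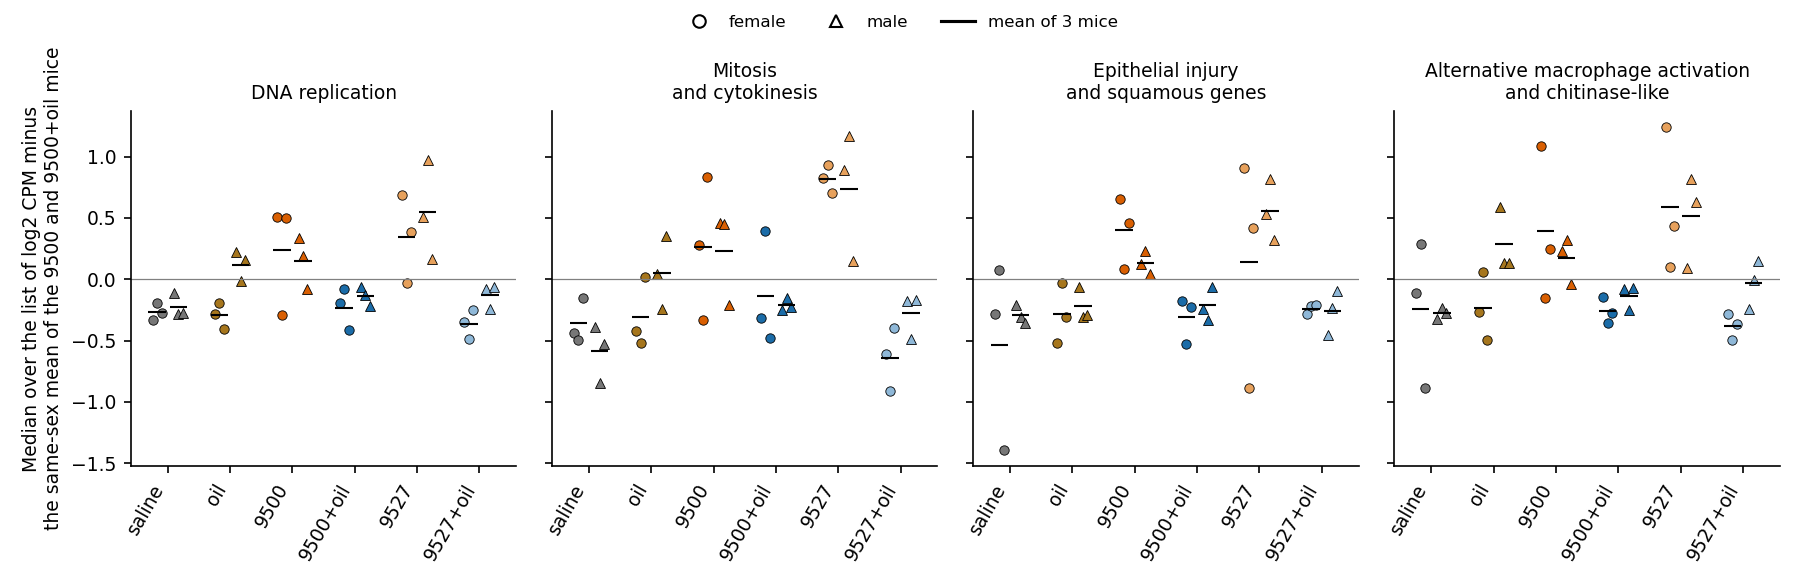
Level of 4 gene lists in each mouse, as the median over the list of log2 CPM minus the mean of the Corexit 9500 and 9500+oil mice of the same sex, by treatment, with females as circles and males as triangles. For mitosis and cytokinesis, female mice spread from -0.33 to 0.83 with Corexit 9500 and from -0.48 to 0.40 with 9500+oil. Male mice spread from -0.21 to 0.46 and from -0.25 to -0.16, so the groups overlap in both sexes. For the alternative macrophage list they overlap in female mice only, where the lowest Corexit 9500 mouse has -0.152 and the highest 9500+oil mouse -0.148.

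Female Corexit 9500 mouse 8 was low in many of these genes. It held 3.18 CPM of Cdc6 against 10.3 and 14.8 CPM in mice 7 and 9, and 2.34 CPM of Kif2c against 6.03 and 6.97 CPM. The level of the DNA replication list, as the median of log2 CPM minus the mean of the Corexit 9500 and 9500+oil mice of the same sex, ran from -0.29 to 0.50 in female Corexit 9500 mice and from -0.42 to -0.08 in female 9500+oil mice. In male mice it ran from -0.08 to 0.34 and from -0.22 to -0.06, so the ranges overlapped in both sexes. For epithelial injury the ranges were 0.09 to 0.65 against -0.53 to -0.18 in female mice and 0.04 to 0.23 against -0.33 to -0.06 in male mice, without overlap.

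The aryl hydrocarbon receptor pathway was split between higher and lower members. Cyp1a1 (chromosome 9, 57687928 to 57703824) was higher with 9500+oil, at 7.98, 6.16 and 7.02 CPM against 1.52, 3.85 and 4.24 CPM in female and 24, 14.2 and 19.9 CPM against 14, 8.38 and 13 CPM in male mice. The gene span is that of GENCODE, whose first start lies upstream of the RefSeq start at which the promoter above ends. The groups were apart in each sex, with a log2 fold change of 0.92 (SE 0.25, unadjusted p = 0.00332, edgeR). In male mice the 9500+oil level was not above that of saline, which was 19.4 to 26.4 CPM, and in female saline mice it was 1.27 to 4.03 CPM. Cyp1b1, another target of the receptor, had 0.26 (SE 0.18), and Ahr itself 0.23 (SE 0.14). Tiparp and Ahrr, which switch the receptor off, had 0.06 and 0.02, and Nqo1, a quinone reductase, had -0.15. Of the 20 members tested, 13 were higher and 7 lower, with a median of 0.05 (the same split and 0.07 without mouse 14). Besides Cyp1a1, only Slc7a5, an amino acid transporter, had an unadjusted p under 0.05 (1.95% of all genes). It had -0.57 (SE 0.26). Over all genes tested, 46.9% were lower with 9500+oil (47.9% without mouse 14). Genes of xenobiotic metabolism were higher in 29 and lower in 15 of 44, with a median of 0.09 (27, 17 and 0.07 without mouse 14), and Ces1f, a carboxylesterase, was apart in each sex (0.42, SE 0.16). Fmo1, a flavin monooxygenase, was also apart, but its log2 fold change of 0.47 was 0.22 without mouse 14.

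Among the other higher genes, Fabp1, a fatty acid binding protein, lay at 2.88, 4.51 and 2.81 CPM in female and 5.83, 4.80 and 4.03 CPM in male Corexit 9500 mice. With 9500+oil it lay at 6.17, 5.38 and 5.21 CPM and at 5.98, 6.49 and 7.70 CPM, with a log2 fold change of 0.58 (SE 0.19). Hes2, a transcriptional repressor, had 0.80 (SE 0.25), Art3, an ADP-ribosyltransferase family member, 0.43 (SE 0.14), Adrb1, the beta-1 adrenergic receptor, 0.39 (SE 0.14) and Mxi1, an antagonist of Myc, 0.34 (SE 0.12). The mitochondrial gene mt-Co3, a subunit of cytochrome c oxidase, had 0.80 (SE 0.21) and 0.62 without mouse 14, at an unadjusted p of 0.0061 (edgeR). In male mice, where all libraries had 5.61% to 7.38% mitochondrial counts, mt-Co3 lay at 433, 394 and 357 CPM with Corexit 9500 and 599, 867 and 746 CPM with 9500+oil. Of the 13 mitochondrially encoded genes 12 were higher over both sexes with a median of 0.43, but 6 were higher and 7 lower without mouse 14. The sum of 22 endothelial markers was 6142 to 8269 CPM with Corexit 9500 and 8221 to 8617 CPM with 9500+oil. Of these markers 19 were higher, 1 at an unadjusted p under 0.05 (0.567% of all genes), with a median of 0.21. Without mouse 14 all 22 were higher, 7 at an unadjusted p under 0.05 (1.23% of all genes). Pecam1, the adhesion protein CD31, had 0.30 (SE 0.14), or 0.19 without mouse 14, and Sox17, a factor of arterial endothelium, 0.31 (SE 0.15). The collagen genes Col1a1 and Col3a1, by contrast, had -0.35 (SE 0.12) and -0.35 (SE 0.14), within a list of 49 matrix and remodelling genes of which 35 were lower and 9 of these had an unadjusted p under 0.05, against 46.9% and 1.38% of all genes. Without mouse 14, 39 were lower, 12 of them at an unadjusted p under 0.05 (2.08% of all genes). Tnc, a matrix protein of injured tissue, differed by -1.31 (SE 0.31) and lay at 42.6 to 98.8 CPM in male Corexit 9500 mice and 25.9 to 36.8 CPM in male 9500+oil mice.

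Cytoplasmic ribosomal protein genes were lower in 78 of 81, with none at an unadjusted p under 0.05. Their median was -0.24, with -0.56 in female and -0.01 in male mice, and -0.12 without mouse 14. Nuclear genes of oxidative phosphorylation had a median of -0.18, with -0.38 in female and -0.06 in male mice, and -0.12 without mouse 14. Without both mouse 14 and female Corexit 9500 mouse 7, the 2 libraries with the highest mitochondrial shares, the medians of both lists turned positive, at 0.12 and 0.04.

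In each sex alone no gene passed an adjusted p of 0.05 either (edgeR). In female mice 133 of 14788 genes (0.899%) had an unadjusted p under 0.05, 47 higher (0.318%) and 86 lower (0.582%), and in male mice 674 of 15087 (4.47%), 340 of them higher and 334 lower (2.21%). DESeq2 called 4 genes in female and 10 in male mice, Sprr1a and Slc26a4 among the former and Retnla (-2.13), Spp1 (-0.91), Irf7 (0.68) and mt-Co3 (0.91) among the latter. The 30 leading genes, 15 lower and 15 higher over both sexes, had the same sign in female and in male mice. Their choice over both sexes favours this, so it is not taken as evidence. In the test of the sex difference itself, no gene passed (edgeR), 160 (1.04%) had an unadjusted p under 0.05, and of the 30 leading genes this held for S100a14 alone, with -2.67 (SE 0.70) in female and -0.88 (SE 0.32) in male mice. Without mouse 14 the female value was -2.28 and the unadjusted p of the sex difference 0.0821 (edgeR). Interferon-induced genes showed unlike medians by sex. In male mice 46 of 48 were higher with 9500+oil, 18 of them at an unadjusted p under 0.05 (2.25% of all genes), with a median of 0.27, while in female mice 19 were higher and 29 lower with a median of -0.09 (9 and 39 without mouse 14). Of all genes, 50.2% were lower in male and 50.8% in female mice. Irf7, a transcription factor of this response, lay at 33.5, 32.4 and 23.6 CPM in male Corexit 9500 mice and 48.3, 51.3 and 42.6 CPM in male 9500+oil mice, and at 33.5 to 40.3 CPM and 14.3 to 35.4 CPM in female mice. Its sex difference was -1.11 (SE 0.41, unadjusted p = 0.0195, edgeR), and the low value of 14.3 CPM was that of mouse 14, without which the difference was -0.81 (SE 0.23). Spp1 (osteopontin) was lower in male mice by -0.91 (SE 0.20) and at 0.01 (SE 0.29) in female mice, or -0.17 (SE 0.22) without mouse 14. Tnfsf13b, a survival factor for B cells, had a sex difference of -2.46 (SE 0.76), or -2.15 without mouse 14. Ms4a1, the B cell marker CD20, lay at 22.2, 31.4 and 16.6 CPM in female Corexit 9500 mice and 52.1, 81.0 and 40.8 CPM in female 9500+oil mice, while the male groups overlapped. Of the 16 B cell markers tested in female mice, 6 were higher and 10 lower, with a median of -0.09, but without mouse 14 the direction turned, with 10 higher and 6 lower and a median of 0.09. Pcx, a mitochondrial enzyme that makes oxaloacetate, had -3.38 (SE 0.89) in female and -0.26 (SE 0.47) in male mice.

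**Figure D4:**
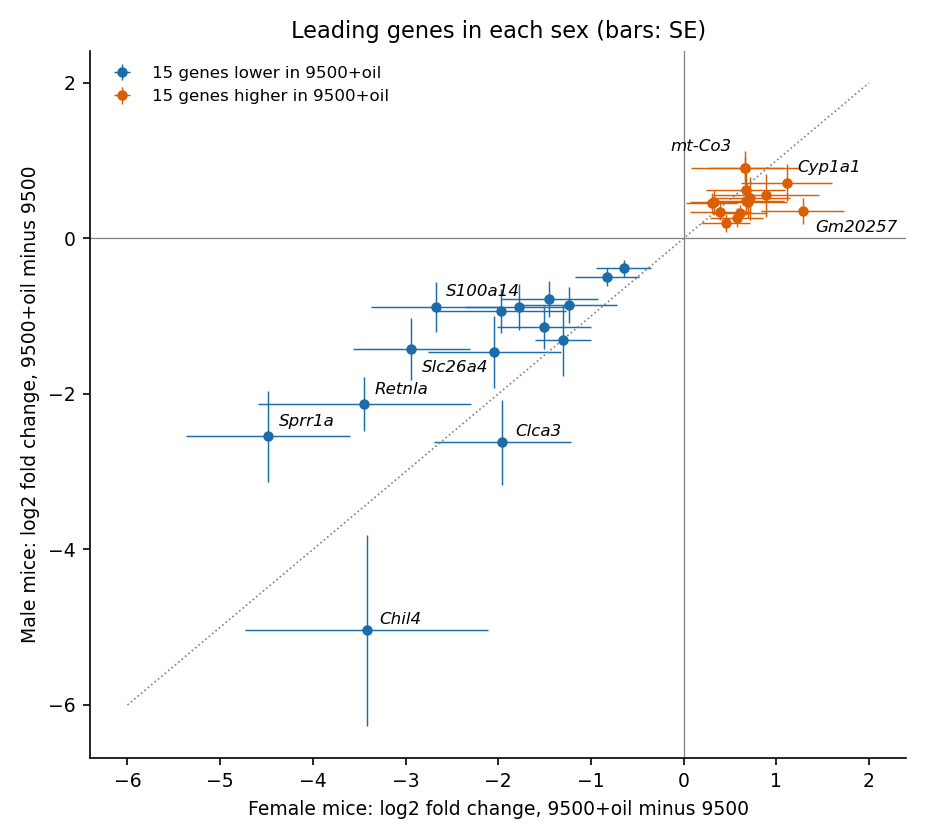
Log2 fold change of 9500+oil over Corexit 9500 in female (x axis) and male (y axis) mice for the 15 lower and 15 higher genes with the smallest p over both sexes, with bars for the SE and a dotted line of equal values. All 30 lie in the quadrant of their own sign because they were chosen over both sexes, and Sprr1a had -4.48 in female and -2.55 in male mice.

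Beside saline, the 2 treatments stood as follows, with the same saline mice in both values. Sprr1a differed from saline by 3.72 (SE 0.61) with Corexit 9500 and by 0.24 (SE 0.35) with 9500+oil. The values were 1.22 (SE 0.30) and -0.09 (SE 0.21) for Tnc, 1.33 (SE 0.36) and 0.18 (SE 0.20) for Mmp12, 1.07 (SE 0.31) and -0.02 (SE 0.25) for Mcm10, and 0.99 (SE 0.25) and 0.35 (SE 0.21) for Plk1. For lists, the median was 0.74 with Corexit 9500 and 0.28 with 9500+oil for mitosis and cytokinesis, 0.43 and 0.05 for DNA replication, and 0.55 and -0.05 for epithelial injury. No gene passed an adjusted p of 0.05 in either comparison with saline (edgeR), where 355 genes (Corexit 9500) and 64 genes (9500+oil) had an unadjusted p under 0.05. Without female saline mouse 3 and female 9500+oil mouse 14 the order was the reverse, with 880 and 1109 genes, and again none passed. In that fit Sprr1a had 3.75 (SE 0.67) and 0.13 (SE 0.30), Tnc had 1.19 and -0.28, Mmp12 had 1.22 and 0.03, Mcm10 had 1.07 and -0.06, Plk1 had 1.05 and 0.46, Fabp1 had -0.89 and -0.27, and Cyp1a1 had -0.49 and 0.33. The list medians were then 0.91 and 0.23 for mitosis and cytokinesis, 0.43 and 0.01 for DNA replication, and 0.47 and -0.03 for epithelial injury. Fabp1 had -0.93 (SE 0.25) and -0.33 (SE 0.20), so both values were below saline. Cyp1a1 had -0.47 (SE 0.37) and 0.46 (SE 0.36).

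Whether oil alone differed from saline in the same way was tested in the 24 mice of the saline, oil, Corexit 9500 and 9500+oil groups. The contrast was the difference between 9500+oil and Corexit 9500 minus that between oil and saline. Per the methods of the study, the oil mice received only the saline phase after separation. The mixtures with dispersant hardly separated and were used directly. The oil given therefore differed with and without dispersant, which the contrast cannot tell apart from an effect of the dispersant. No gene passed (edgeR), and 274 of 15706 (1.74%) had an unadjusted p under 0.05. Without female saline mouse 3, female oil mouse 6 and female 9500+oil mouse 14 the number was 756, and none passed. Sprr1a had -3.33 (SE 0.73, unadjusted p = 1.54e-04, edgeR), Mcm10 -1.59 (SE 0.40), Hn1l -0.72 (SE 0.18) and Fabp1 1.41 (SE 0.32). Without those 3 libraries the values of Sprr1a, Mcm10 and Hn1l were -3.61 (SE 0.85), -1.75 (SE 0.42) and -0.77 (SE 0.18). Hn1l lay at 57.1, 34.7 and 58.5 CPM in female and 37.8, 37.8 and 29.6 CPM in male Corexit 9500 mice, and at 28.4, 35.6 and 29.9 CPM and 26.3, 27.3 and 27.0 CPM with 9500+oil. With oil alone Hn1l lay at 31.8 to 38.1 CPM. Hes2 had 1.43 (SE 0.47) in this test and 1.58 (SE 0.40) without those libraries. DESeq2 called 5 genes, with Sprr1a (-3.34) and Fabp1 (1.44) among them. The others were 1700047I17Rik2 (26.7), Gm6851 (24.8) and Zfp935 (-29.3), values too large to be read as measured differences.

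The same question can be put to the other dispersant in mice that do not enter the comparison of 9500+oil with Corexit 9500. Between 9527+oil and Corexit 9527, 79 genes were lower and 7 higher at an adjusted p under 0.05 (edgeR), 0.559% of the genes tested. Without female Corexit 9527 mouse 11, 654 were lower and 385 higher (1039 in all). Of the 79, 77 were tested in 9500+oil against Corexit 9500, where 76 were lower, as were 46.9% of all genes. Of the 77, 33 were lower at an unadjusted p under 0.05 (1.38% of all genes). The median of the 77 was -0.55. Without mouse 14 all 77 were lower, 60 of them at an unadjusted p under 0.05 (2.08% of all genes). The 7 higher genes were all higher here, none at an unadjusted p under 0.05. Of the 643 lower genes tested here, 509 were lower and 134 higher, with a median of -0.24 and 125 lower at an unadjusted p under 0.05 (1.38% of all genes). Without mouse 14, 627 of 647 were lower, 197 of them at an unadjusted p under 0.05 (2.08% of all genes). Of the 385 higher genes, 268 were higher, 8 of them at an unadjusted p under 0.05 (0.567% of all genes), and 117 lower, with a median of 0.07. Without mouse 14, 16 were lower, and 48 were higher at an unadjusted p under 0.05 (1.23% of all genes). Among the 79 were Sprr1a (-4.05, adjusted p = 0.0117 from edgeR), Slc26a4 (-3.58, adjusted p = 0.0259), Mmp12 (-2.82, adjusted p = 0.0123), Tnc (-2.45, adjusted p = 0.0267), Retnla (-3.58, adjusted p = 0.0428) and Timp1 (-2.34, adjusted p = 0.0468), along with genes of cell division such as Kif2c and Plk1. Without mouse 11 the log2 fold changes of Sprr1a, Slc26a4, Mmp12, Tnc, Retnla and Timp1 were -4.23, -3.64, -2.75, -2.55, -3.60 and -2.49. In the test between the dispersants no gene passed (edgeR), the lowest adjusted p being 0.507, and 1441 of 15712 (9.17%) had an unadjusted p under 0.05, 1184 higher and 257 lower. It was 559 without mouse 14, and 549 (294 higher and 255 lower) without both mouse 14 and female Corexit 9527 mouse 11. Ccna2 had 1.32 (SE 0.35), or 0.95 (SE 0.29) without both, with a fall by 1.69 for Corexit 9527 and a difference of -0.37 for Corexit 9500. Lrrc46 and Lrrc43 had -1.08 (SE 0.28) and -1.10 (SE 0.34) in that test, or -0.96 and -0.95 without both. Sprr1a had 0.49 (SE 0.81), or 0.58 (SE 0.89) without both, so its difference between the dispersants was smaller than its error.

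**Figure D5:**
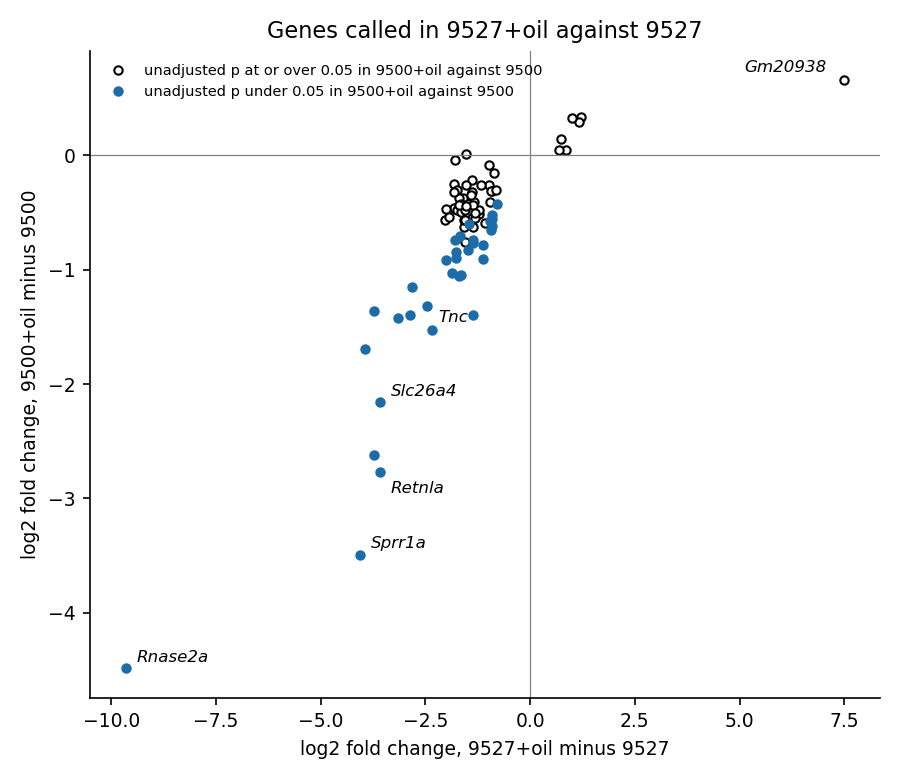
Log2 fold change of 9527+oil over Corexit 9527 (x axis) and of 9500+oil over Corexit 9500 (y axis) for the genes called in the former and tested in both, with filled points for an unadjusted p under 0.05 in the latter. Of 77 genes called lower with the other dispersant, 76 lie below 0 on the y axis, and the 7 called higher lie above it.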

How the data were processed

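RNA of the left lung of 36 mice (1 library per mouse, 3 per sex and treatment) was sequenced as paired-end reads from a stranded poly(A) kit. The authors deposited 2 tables of expected counts per gene, 1 per sex, which they made with Salmon on GRCm38 transcripts and tximport. Tool versions are not given in the sources used here. All deposited values were whole numbers, so rounding changed none. The tables held 18120 and 18295 genes and were joined on the 17716 symbols found in both. In each, 4 rows that shared a name were left out (0.0103% and 0.0128% of counts). No column was left unmapped. Symbols were placed on GRCm38 with GENCODE annotation for 98.6% of names. The mice of a group are separate animals, and precision is limited by 3 mice per sex and group.

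The design had treatment and sex as terms. Counts passed filterByExpr, were scaled by TMM and tested with edgeR 4.0.16 (glmQLFit and glmQLFTest, two-sided, default prior count) in R 4.3.3. Benjamini-Hochberg adjustment was at 0.05. A prior count of 2 was used only for log2 CPM, in the list levels and the GC offsets. The SE of an edgeR value is its absolute log2 fold change divided by the square root of its F statistic. The script was tested on simulated data. Sex differences and contrasts against oil without dispersant and against the other dispersant were terms of such fits. Groups were called apart where no mouse of one overlapped the other within a sex. Named genes were those past the threshold or, failing that, the 15 with the smallest p in each direction among genes of at least 1 mean log2 CPM, with 5 per direction in each sex, 3 for each contrast of differences and 3 per described list, plus the lists for the aryl hydrocarbon receptor pathway and the PCR genes. The comparison, the gene lists and the marker lists were chosen with earlier results of these data known. DESeq2 1.42.0, limma 3.58.1 (voom), other scalings, filters, samples and offsets for GC content and length were tried as alternatives. Some of these were chosen after seeing the data, as were fits without the libraries of over 20% mitochondrial counts. Promoter letters were searched over 250 bases in the RefSeq table, which had no entry for Muc5ac, Clca1, Psca or Gins2. Some genes that the rule names are not reported here.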

Additional observations from a re-analysis of the deposited data

Results flagged for a closer look

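Of 142 groups of 6 mice examined, 14 held a mouse whose gap to its nearest neighbour was large for the range of its group. Chance alone gives about 1 in 20 such groups. Of the 14, 8 were due to female 9500+oil mouse 14. It had 20.7% mitochondrial counts, where the next of the 6 mice had 8.94%, and its GC-rich genes lay at -1.96 on the log2 scale relative to GC-poor ones, where the next had -0.0221. In the same mouse S100a14 was low at 0.638 CPM (next 2.27), Sdf2l1 at 4.25 CPM (next 8.39) and Irf7 at 14.3 CPM (next 32.5). It was high for Fmo1 at 1546 CPM (next 719), for Pecam1 at 1459 CPM (next 1003) and for Ccna2 at 24.3 CPM (next 12.0).

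Female Corexit 9500 mouse 7 had 14611 genes with a count, the next having 16651, and 6.84 CPM of Cyp1b1, the next having 11.3 CPM. Female Corexit 9500 mouse 9 had 58.0 CPM of Ahr, with the next at 80.7 CPM. Female 9500+oil mouse 15 had 0.155 CPM of Rad51ap1 (next 0.935) and 547 CPM of Col3a1 (next 714). Male 9500+oil mouse 13 had 1.58 CPM of Kif2c (next 2.38).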

How the results depend on the processing

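No gene passed an adjusted p of 0.05 in any of the 6 comparisons in edgeR, nor when any 1 mouse was left out, with counts of 0 to 0 in each. No paired analysis was possible because the mouse numbers of the groups compared, 7 to 9 and 13 to 15, are not shared. DESeq2 called 5 genes over both sexes, 4 in female and 10 in male mice. It called 7 for the sex difference, 5 against oil without dispersant and 3 against the other dispersant. Log2 fold changes of the 7 ran from 8.19 to 27.5 and those of the 3 from 26.1 to 49.2. Values of that size cannot be read as measured differences. The fit of all 6 treatment groups called 1 gene over both sexes. Without female 9500+oil mouse 14 and female 9500 mouse 7, a setting chosen after seeing the data, the sex difference gave 1 gene (Zfp934, also picked after its values were seen). The cause was not tested. The number of genes at an unadjusted p under 0.05 over both sexes was 299, and it ranged from 204 to 514 as each mouse was left out, with 413 in DESeq2, 678 in voom, 437 without a filter and 515 with offsets for GC content and length. By comparison the range was 86 to 224 in female mice, 419 to 991 in male mice, 86 to 733 for the sex difference, 208 to 428 against oil and 559 to 2274 against the other dispersant. None of the 78 values of named genes changed sign under any alternative, and the threshold was passed under another setting 14 times, nearly always in DESeq2. Medians of small size changed sign for other lists, and 16 moved by more than their spread, among them interferon-induced genes by sex. The medians of DNA replication, mitosis, epithelial injury and alternative macrophage genes were negative in all alternatives. With 3 mice per sex and group, small differences were not detectable.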

Other observations

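For the groups below, 46.9% of all genes tested were lower with 9500+oil, and 47.9% without mouse 14. Among groups not described above, erythroid markers were higher with 9500+oil in 9 of 10, with a median log2 fold change of 0.26. Without mouse 14 they were higher in 10 of 10, with 0.45. Cholesterol and fatty acid synthesis genes were lower in 31 of 38 with a median of -0.14 (31 of 38 with -0.12 without mouse 14), and lysosome and phagosome genes in 46 of 61 with a median of -0.13 (40 of 61 with -0.05 without it). Alveolar type 2 cell markers were lower in 13 of 16, with a median of -0.12 in both fits. Circadian clock genes were higher in 17 of 22 with a median of 0.11 (19 of 22 with 0.12 without mouse 14), T cell markers in 16 of 20 with 0.11 (13 of 20 with 0.05) and ciliated cell markers in 22 of 30 with 0.12 (22 of 30 with 0.04). Heat shock and unfolded protein response genes were lower in 24 of 30 with a median of -0.13 (23 of 30 with -0.15 without mouse 14), and the chaperone cofactor Sdf2l1 had -1.01 (-0.80 without mouse 14) and the disulfide isomerase Pdia6 -0.39. Genes of the Nrf2 response to oxidative stress were split, with 18 higher and 24 lower of 42 (16 and 26 without mouse 14). Glucocorticoid-induced genes had a median of -0.50 in female mice (-0.38 without mouse 14) and 0.18 in male mice, a difference that was not tested as a group.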
